A study of Homo sapiens with 6 samples.

Results

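Collagen genes were examined in PC-3 cells, a human prostate cancer cell line established from a bone metastasis, after depletion of CdGAP, a GTPase-activating protein that switches off Rac1 and Cdc42. All protein-coding genes of the primary chromosomes whose symbol reads COL, a number, A and a number were taken, which selected 44 of the 64253 genes in the count tables. The shCdGAP group held 3 libraries of cells infected with a lentiviral shRNA against CdGAP, and the shCon group held 3 libraries of cells with a control shRNA. According to the methods, CdGAP-depleted PC-3 cells were selected with puromycin and grown from single cells into clones. Which clone was sequenced is not given in the sources used here, and such a step is not described for the control cells, so an effect of CdGAP depletion and a difference between a clone and its parent line cannot be told apart. The methods call the 3 samples of each group independent without saying how they were separated, so p-values measure the spread between these samples. Of the 44 collagen genes, 28 had enough reads to be tested, and 16 did not.

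Collagens are secreted or membrane proteins made of 3 chains wound into a triple helix, with glycine at every turn of the helix. The genes encode chains, and several chains of one type usually assemble together, so the balance between partner chains matters as well as their sum. Fibrillar collagens (types I, II, III, V, XI, XXIV and XXVII) build the tensile fibres of stroma and bone. Type IV forms the sheet of basement membranes, type VI forms beaded filaments around cells, and type VII anchors basement membranes to the stroma below. Fibril-associated collagens (types IX, XII, XIV, XVI and XIX to XXII) sit on fibres, multiplexins (XV and XVIII) lie in basement membranes and carry heparan or chondroitin sulfate chains, and transmembrane collagens (XIII, XVII, XXIII and XXV) act at the cell surface. Epithelial cancer cells are known for type IV, VI, XVII and XVIII chains, whereas most fibrillar collagen of a tumour comes from fibroblasts.

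The libraries held between 33182796 and 43154039 counted reads. ARHGAP31, the gene of CdGAP (ENSG00000031081), had 1072, 1181 and 926 reads in shCdGAP libraries 1, 2 and 3 and 2472, 2557 and 1923 in shCon libraries 1, 2 and 3. Its change was -1.14 ± 0.0409 log2 units (SE, edgeR adjusted p = 8.75e-08). Changes are given in this way, as the log2 fold change of shCdGAP over shCon with its standard error and the adjusted p of the quasi-likelihood test in edgeR. Read numbers follow this order of libraries, and levels are RPKM, which are counts divided by gene length in kilobases and by the TMM-scaled library size (CPM without the length). A gene was said to rise or fall where its p, adjusted by the Benjamini-Hochberg method over all 16439 tested genes, was under 0.01. Epithelial markers were abundant (KRT8, KRT18, KRT19 and EPCAM, together 685 to 704 CPM in shCon and 944 to 1176 CPM in shCdGAP libraries). KRT19 and EPCAM rose by 1.04 and 1.35 on the log2 scale, and KRT8 and KRT18 did not pass. The prostate luminal genes KLK2 and KLK3 had no read. Of the 5 fibroblast markers, LUM, PDGFRA and PDGFRB rose and THY1 and DCN had at most 5 reads in a library. LUM and PDGFRB, with at most 11 and 7 reads in a shCon library, passed the filter only through shCdGAP. The summed level of the 5 markers was 1.94 to 2.22 CPM in shCon and 9.77 to 22.1 CPM in shCdGAP libraries. Their part in the collagen results was not tested. The leukocyte markers CD3E and PTPRC had at most 1 read while CD68 rose (the list summed to 0.405 to 0.450 CPM in shCon and 1.15 to 1.38 in shCdGAP libraries), and neither tested endothelial marker passed (9.71 to 11.6 and 5.38 to 12.7 CPM over that list).

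Of the 28 tested collagen genes, 12 rose and 8 fell in shCdGAP cells. Among all tested genes 24.1% rose and 22.0% fell. With an absolute log2 fold change above 1 added, 7 collagen genes were higher and 6 lower, where the shares over all tested genes were 8.56% and 4.19%. The 3 shCdGAP libraries lay wholly above the 3 shCon libraries for 12 members and wholly below for 9, against 34.4% and 32.7% of all tested genes (67.1% in either direction). The median log2 fold change of the 28 genes was 0.25 and that of all tested genes 0.01, and the medians of the absolute changes were 0.91 and 0.31. Members moved both ways within most classes, and the range ran from -1.58 for COL16A1 to 3.00 for COL3A1. A gene that passed the filter only through the group in which it is high had to differ. This holds for COL4A4 and COL19A1, both among the 12 that rose. COL11A2, whose groups overlap, was the other of 3 tested members that averaged under 10 reads in shCon libraries.

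**Figure D1:**
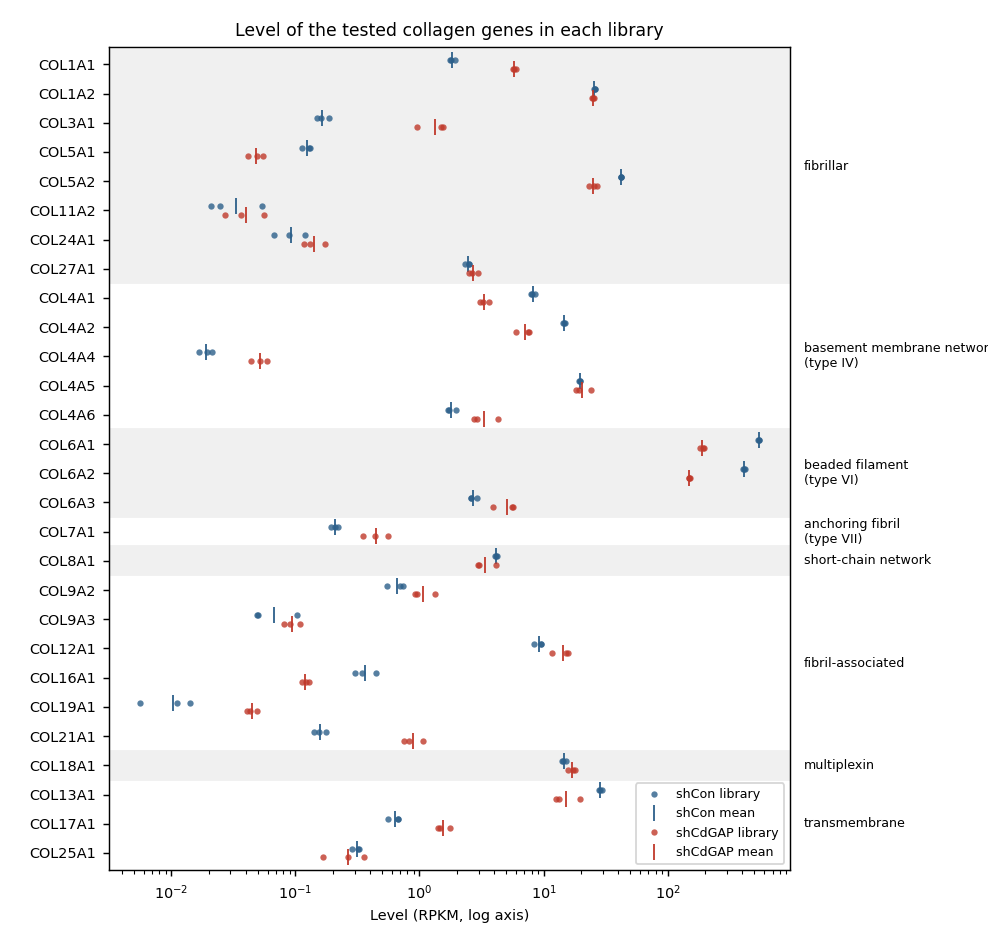
Level of the 28 tested collagen genes in RPKM on a log axis, with a point for each library, a vertical tick for each group mean and shading by collagen class. COL6A1 and COL6A2 stand above all other members in both groups, and their shCdGAP points lie to the left of their shCon points.

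The chains of type VI collagen gave the largest amounts. COL6A1 (ENSG00000142156, chr21:45981737-46005050 in GRCh38) had 41515, 42119 and 36176 reads in shCdGAP libraries and 121251, 120983 and 96756 in shCon libraries. COL6A2 (ENSG00000142173, chr21:46098097-46132849) had 32136, 35373 and 27622 reads against 91253, 94740 and 73634. For both genes the groups were far apart and the libraries of a group close together. COL6A1 fell from 542 ± 5.85 to 190 ± 8.15 RPKM (SD, n = 3 each), a change of -1.51 ± 0.0400 log2 units (SE, edgeR adjusted p = 2.32e-08). COL6A2 fell from 411 ± 6.77 to 149 ± 1.82 RPKM (SD, n = 3 each), a change of -1.46 ± 0.0330 log2 units (SE, edgeR adjusted p = 1.28e-08). By mean RPKM these genes ranked 36 and 55 among all tested genes in shCon cells and 136 and 200 in shCdGAP cells.

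The long chain of the same trimer went the other way. COL6A3 (chr2:237324003-237414375), which extends the filament with many von Willebrand factor A domains, had 4550, 3369 and 3768 reads in shCdGAP and 2153, 2394 and 1678 in shCon libraries. It rose from 2.70 ± 0.167 to 5.08 ± 0.990 RPKM (SD, n = 3 each), a change of 0.91 ± 0.146 log2 units (SE, edgeR adjusted p = 0.00181). Without a filter on low counts its adjusted p was 0.0190 by edgeR. The level of COL6A3 per level of COL6A1 was 0.0298, 0.0218 and 0.0283 in shCdGAP libraries and 0.00483, 0.00539 and 0.00472 in shCon libraries, 5.31-fold higher, whereas COL6A2 per COL6A1 was 0.786 ± 0.0410 and 0.759 ± 0.0156 (SD, n = 3 each) with overlapping groups. COL6A5 had at most 2 reads and COL6A6 none.

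Since type VI chains made up most of the collagen RNA, they set its total. The RPKM of the 44 genes summed to 493 ± 5.75 in shCdGAP and 1132 ± 8.85 in shCon libraries (SD, n = 3 each). COL6A1 and COL6A2 took 68.7% ± 0.680 of that sum in shCdGAP and 84.2% ± 0.107 in shCon libraries. The 42 other genes together gave 154 ± 1.71 and 178 ± 0.618 RPKM. In bulk RNA, fewer cells that express a gene and less RNA per cell cannot be told apart.

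Upstream sequences are shown for the type VI and type IV chains, because partner chains in these types changed together in some pairs and apart in others. RefSeq (GRCh38.p14) gave entries for 32 of the 44 members. COL6A1, COL1A1, COL1A2, COL3A1 and COL5A2 were not among them. The 250 bases before a start were searched on both strands, and matches are in capitals. The CCAAT box (the letters CCAAT) stood in 32.0% of 35116 promoter entries of all genes and in 11 of the 32 members. The GC box (searched as GGGCGG) stood in 42.6% of all entries and in 21 members. The TATA box (searched as TATAAA) stood in 10.7% of all entries and in 7 members. A CT-rich motif known from collagen promoters (searched as CCCTCCCC) stood in 12.7% of all entries and in 10 members.
COL6A2, chr21:46097862-46098111, plus strand: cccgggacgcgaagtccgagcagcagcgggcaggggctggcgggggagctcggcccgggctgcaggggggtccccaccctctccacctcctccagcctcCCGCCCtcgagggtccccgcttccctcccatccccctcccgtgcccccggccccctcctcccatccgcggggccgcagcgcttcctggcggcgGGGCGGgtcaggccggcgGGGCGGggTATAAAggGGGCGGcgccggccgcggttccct
COL6A3, chr2:237414165-237414414, minus strand: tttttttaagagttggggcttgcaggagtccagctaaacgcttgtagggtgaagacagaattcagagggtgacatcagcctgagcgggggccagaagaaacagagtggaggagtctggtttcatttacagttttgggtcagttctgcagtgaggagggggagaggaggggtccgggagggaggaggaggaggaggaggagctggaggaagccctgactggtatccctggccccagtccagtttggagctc
COL4A1 to COL4A2, chr13:110307158-110307283, plus strand: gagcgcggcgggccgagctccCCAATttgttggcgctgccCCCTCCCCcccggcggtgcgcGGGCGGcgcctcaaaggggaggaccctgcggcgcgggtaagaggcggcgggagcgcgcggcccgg
COL4A5, chrX:108439588-108439837, plus strand: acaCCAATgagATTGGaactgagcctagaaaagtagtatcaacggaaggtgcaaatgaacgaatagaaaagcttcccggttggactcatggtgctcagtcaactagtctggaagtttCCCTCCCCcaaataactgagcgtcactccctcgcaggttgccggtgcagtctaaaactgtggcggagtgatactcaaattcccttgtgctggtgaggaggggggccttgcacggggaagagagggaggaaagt
The COL6A2 window held 4 GC boxes and 1 TATA box, and the COL6A3 window none of the searched motifs. GC content was 79.6% for COL6A2 and 56.0% for COL6A3. The COL4A1 to COL4A2 stretch is the whole sequence between the RefSeq starts of these genes, which lie 127 bases apart and are read in opposite directions. It held 1 CCAAT box, 1 GC box and 1 CT-rich motif, none overlapping another, and the COL4A5 window held 2 CCAAT boxes and 1 CT-rich motif. These matches describe the sequence and not bound factors.

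COL4A1 and COL4A2, the ubiquitous chains of basement membrane collagen, fell together. COL4A1 (ENSG00000187498, chr13:110148963-110307149) had 1201, 1105 and 908 reads in shCdGAP and 2780, 2936 and 2157 in shCon libraries. COL4A2 (ENSG00000134871, chr13:110305812-110513027) had 2692, 2258 and 2253 reads against 5282, 5498 and 4164. After scaling, the groups did not overlap for either chain, with shCdGAP lower. COL4A1 fell from 8.19 ± 0.274 to 3.31 ± 0.270 RPKM (SD, n = 3 each), a change of -1.30 ± 0.0618 log2 units (SE, edgeR adjusted p = 3.79e-07). COL4A2 fell from 14.6 ± 0.285 to 7.04 ± 0.938 RPKM (SD, n = 3 each), a change of -1.06 ± 0.0878 log2 units (SE, edgeR adjusted p = 2.15e-05). The COL4A1 to COL4A2 ratio was 0.474 ± 0.0459 in shCdGAP and 0.559 ± 0.00851 in shCon libraries (SD, n = 3 each). In the Ensembl annotation used for counting, the genes overlap at their starts on opposite strands, whereas their RefSeq starts lie 127 bases apart. The tables were counted by strand.

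Most genes around this pair on chromosome 13 were also lower in shCdGAP cells. The 20 nearest tested genes on each side of COL4A1, other collagens left out, had a median log2 fold change of -1.59, and 36 of 39 were lower. For COL4A2 the median was -1.58. COL4A1 lay 0.28 and COL4A2 0.52 above the median of its neighbours, with 28 and 30 of the 39 neighbours lower than the collagen gene. Over the whole of chromosome 13 the median of 271 tested genes was -0.99. An effect on these chains and a change of the whole stretch cannot be told apart from their levels.

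The other type IV chains lie elsewhere and did not fall. COL4A5 and COL4A6 stand head to head on chromosome X, 380 bases between their nearest RefSeq starts, and encode chains of the basement membranes of kidney, skin and smooth muscle. COL4A5 had 6814, 9175 and 5473 reads in shCdGAP and 7237, 7051 and 5704 in shCon libraries, with overlapping groups (0.07 ± 0.0978 log2 units, SE, edgeR adjusted p = 0.558). COL4A6 had 1086, 1732 and 870 reads against 761, 672 and 525 and rose from 1.79 ± 0.139 to 3.30 ± 0.857 RPKM (SD, n = 3 each). The change was 0.88 ± 0.179 log2 units (SE, edgeR adjusted p = 0.00476). For both genes shCdGAP library 2 was the highest, and without that library their log2 fold changes were -0.07 and 0.63. COL4A6 lost its call without any one of the shCon libraries (adjusted p 0.0117 to 0.0196 by edgeR). The COL4A6 to COL4A5 ratio was 0.159 ± 0.0161 in shCdGAP and 0.0918 ± 0.00643 in shCon libraries (SD, n = 3 each). COL4A5 had the highest level of the type IV chains in both groups, 20.5 and 19.5 RPKM. COL4A4, a chain known from the glomerular basement membrane, rose from 8, 7 and 7 to 21, 19 and 20 reads (1.42 ± 0.280 log2 units, SE, edgeR adjusted p = 0.00212), while its partner COL4A3 had at most 10 reads and was not tested.

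**Figure D2:**
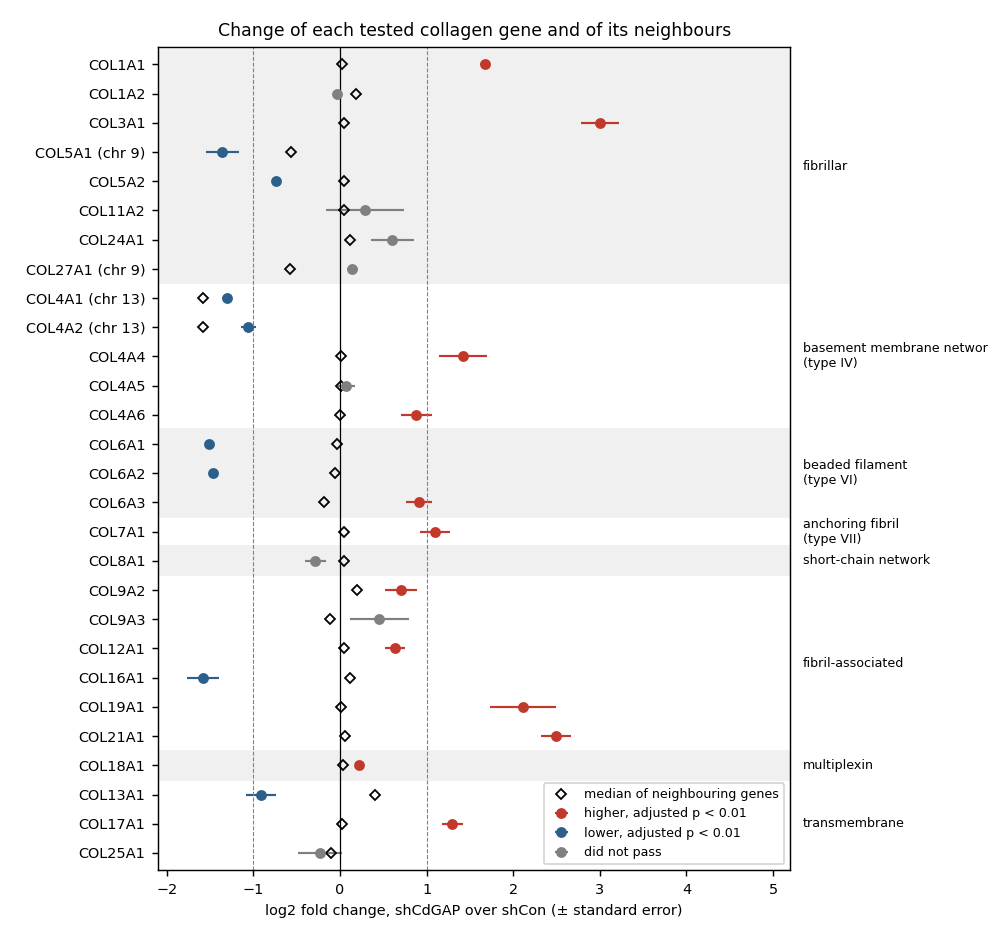
log2 fold change of each tested collagen gene with its standard error, coloured by the edgeR test at an adjusted p of 0.01, and, as open diamonds, the median of the 20 nearest tested genes on each side. The diamonds of COL4A1, COL4A2, COL5A1 and COL27A1 lie well below 0, between -1.59 and -0.57, while those of all other members lie between -0.18 and 0.41.

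Among fibrillar collagens, COL3A1 and COL1A1 rose most. COL3A1 (chr2:188974320-189012746), the homotrimer of pliable tissues, had 429, 282 and 350 reads in shCdGAP and 53, 43 and 36 in shCon libraries. It rose from 0.165 ± 0.0185 to 1.33 ± 0.333 RPKM (SD, n = 3 each), the largest log2 fold change of the tested members at 3.00 ± 0.220 log2 units (SE, edgeR adjusted p = 6.40e-06). COL1A1 (ENSG00000108821, chr17:50183289-50201632), which supplies most chains of type I fibres, had 2281, 2581 and 1920 reads against 727, 745 and 628. It rose from 1.83 ± 0.0907 to 5.82 ± 0.189 RPKM (SD, n = 3 each), a change of 1.67 ± 0.0524 log2 units (SE, edgeR adjusted p = 4.38e-08). Fibroblast markers also had a higher summed level in shCdGAP libraries, as given above. Of these markers PDGFRA had 292, 816 and 251 reads in shCdGAP libraries 1, 2 and 3. In library 2, where PDGFRA was highest, COL3A1 was lowest and COL1A1 highest. The COL1A1 levels were 5.73, 6.04 and 5.69 RPKM in these libraries. A link between the markers and the collagen genes was not tested.

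COL1A2, the partner chain of COL1A1, did not pass the test. It had 11439, 12225 and 9471 reads in shCdGAP and 12128, 11938 and 9497 in shCon libraries, 25.1 ± 0.309 and 25.7 ± 0.289 RPKM (SD, n = 3 each). The scaled shCdGAP values lay just below the shCon values without overlap, and the change was -0.04 ± 0.0314 log2 units (SE, edgeR adjusted p = 0.356). COL1A2 was far above COL1A1 in both groups per length, and the COL1A1 to COL1A2 ratio was 0.227, 0.240 and 0.230 in shCdGAP libraries and 0.0681, 0.0709 and 0.0751 in shCon libraries, a 3.26-fold difference.

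Type V collagen, which regulates the diameter of type I fibres, was lower in both of its tested chains. COL5A2 (chr2:189031896-189179879) had 7437, 7228 and 6598 reads in shCdGAP and 12641, 12601 and 9985 in shCon libraries. It fell from 42.0 ± 0.266 to 25.2 ± 1.85 RPKM (SD, n = 3 each), a change of -0.74 ± 0.0517 log2 units (SE, edgeR adjusted p = 4.04e-06). It lies beside COL3A1, its neighbour on the opposite strand, which rose. COL5A1 (chr9:134641774-134844843) was scarce, with 19, 24 and 21 reads against 53, 62 and 48, and fell by 1.36 ± 0.189 log2 units (SE, edgeR adjusted p = 0.000269). The third chain, COL5A3, had 8, 2 and 5 reads in shCdGAP and at most 1 in shCon libraries and was not tested.

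Chromosome 9 carries 3 collagen genes. The neighbours of COL5A1 had a median log2 fold change of -0.57 with 35 of 40 lower, and none of the 40 was lower than COL5A1 itself. COL27A1 (chr9:114155560-114312511), a fibrillar collagen of cartilage, had 1499, 1524 and 1413 reads in shCdGAP and 1468, 1381 and 1149 in shCon libraries. The change was 0.14 ± 0.0647 log2 units (SE, edgeR adjusted p = 0.0902), while its neighbours had a median of -0.58 with 34 of 40 lower, although with 10 genes on each side that median was -0.33. Without shCdGAP library 2, COL27A1 passed the test (log2 fold change 0.18, edgeR adjusted p = 0.000844). COL15A1, a multiplexin, had 7, 7 and 4 reads against 1, 2 and 2 and was not tested. The median of the 662 tested genes of chromosome 9 was -0.42.

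With the 4 tested members of chromosomes 9 and 13 set aside, 12 of 24 collagen genes rose and 5 fell, and their median log2 fold change was 0.53. The 15506 tested genes of all other chromosomes had a median of 0.03, and 25.0% of them rose and 19.9% fell, so the share of collagen genes that fell was close to that background. Of the 6 collagen genes lower by more than 1 on the log2 scale, COL6A1, COL6A2 and COL16A1 lie outside chromosomes 9 and 13. Neighbours of COL6A1 on chromosome 21 had a median of -0.04, and 2 of 32 were lower than COL6A1.

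**Figure D3:**
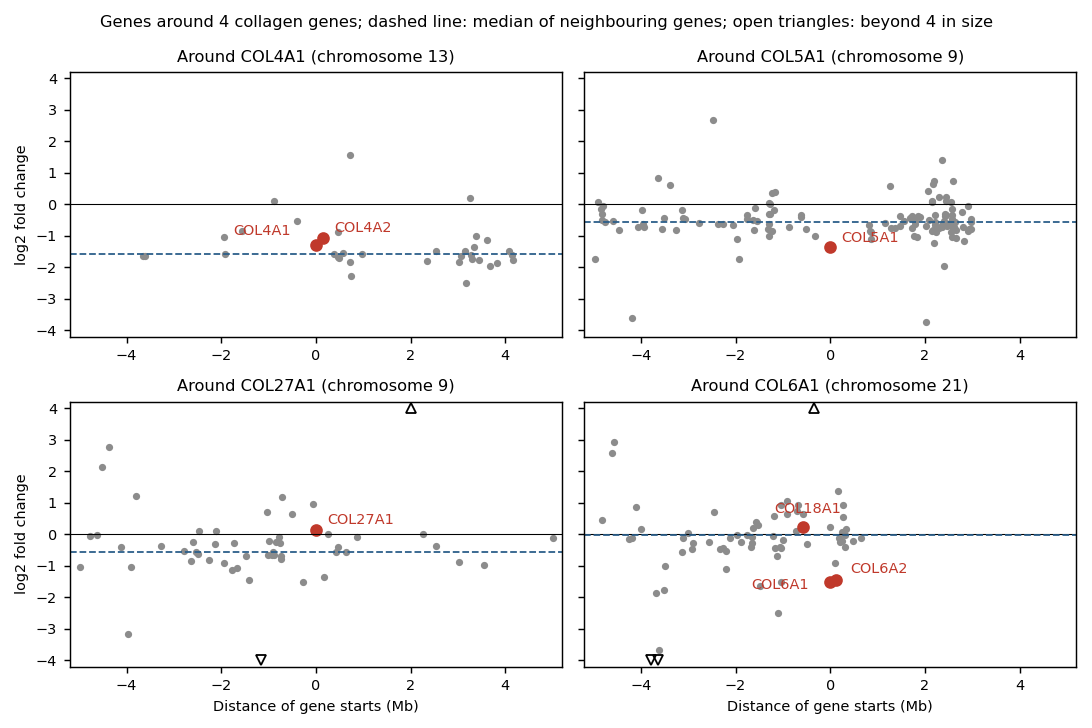
log2 fold change of tested genes (grey) and collagen genes (red) against the distance of their starts from COL4A1, COL5A1, COL27A1 or COL6A1 in megabases, with the median of the 20 nearest tested genes on each side as a dashed line and values beyond 4 as open triangles. COL4A1 and COL4A2 lie slightly above a dashed line at -1.59, COL5A1 lies below one at -0.57, COL27A1 lies above one at -0.58, and COL6A1 and COL6A2 lie far below one at -0.04.

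The remaining fibrillar genes were scarce. COL24A1 had a log2 fold change of 0.60 (edgeR adjusted p = 0.0639) and passed only without shCdGAP library 2 among the alternatives tried (0.71, edgeR adjusted p = 0.00801). COL11A2 had between 6 and 13 reads in every library. COL2A1, the collagen of cartilage, had at most 5 reads and COL11A1 at most 1.

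Fibril-associated collagens rose in 4 of the 6 tested genes and fell in 1, where 24.1% and 22.0% of all tested genes did. COL19A1, 1 of the 4, had at most 4 reads in a shCon library and so passed the filter only through shCdGAP. COL21A1 (chr6:56056590-56394094), a short chain found along vessel walls, had 238, 329 and 184 reads in shCdGAP and 52, 42 and 36 in shCon libraries. It rose from 0.157 ± 0.0174 to 0.884 ± 0.163 RPKM (SD, n = 3 each), 5.65-fold (edgeR adjusted p = 3.78e-06). COL19A1 rose from 4, 2 and 4 to 17, 16 and 12 reads, so its fold rests on few reads (2.11 ± 0.378 log2 units, SE, edgeR adjusted p = 0.00123). COL12A1, the abundant member of the class and a partner of type I fibres in dense tissues, had 7963, 6401 and 6520 reads against 5005, 5006 and 3472. It rose from 9.16 ± 0.642 to 14.2 ± 2.15 RPKM (SD, n = 3 each), a change of 0.64 ± 0.113 log2 units (SE, edgeR adjusted p = 0.00229).

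COL16A1 was the member of this class that fell. It had 48, 49 and 36 reads in shCdGAP and 117, 174 and 105 in shCon libraries, a change of -1.58 ± 0.183 log2 units (SE, edgeR adjusted p = 8.54e-05). COL9A2, a chain of type IX collagen of cartilage, rose by a log2 fold change of 0.71 (161, 242 and 131 against 95, 129 and 96 reads, edgeR adjusted p = 0.00878), close to the threshold. It did not pass without shCdGAP library 1 (adjusted p = 0.0160) or without any one of the shCon libraries (0.0192 to 0.0448, all by edgeR). Its partner COL9A3 had 8 to 23 reads in a library and overlapping groups, and COL9A1 had 1 to 12 reads and was not tested.

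**Figure D4:**
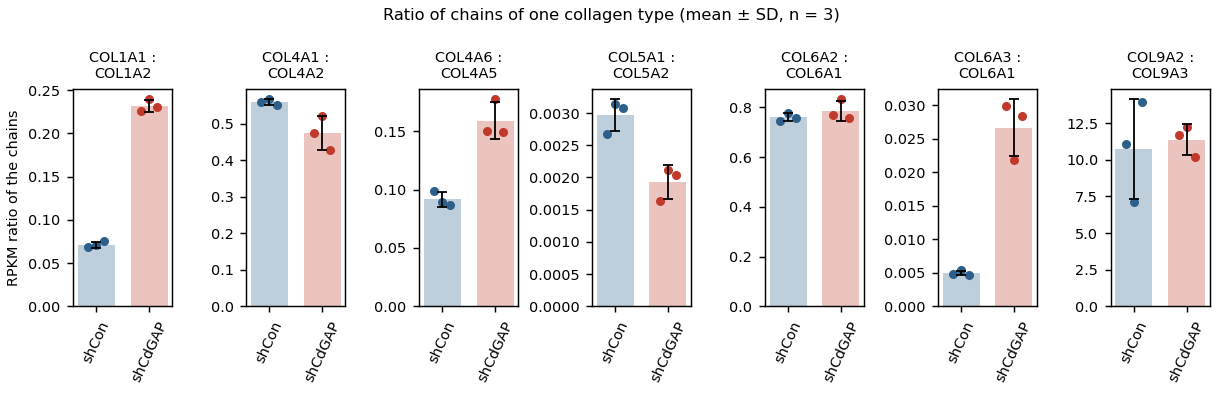
RPKM ratio of chains of one collagen type in each library (points), with the mean as a bar from 0 and the SD as an error bar (n = 3). The groups are apart for 5 of 7 pairs, the widest being COL6A3 to COL6A1 (5.31-fold higher in shCdGAP) and COL1A1 to COL1A2 (3.26-fold), and they overlap for COL6A2 to COL6A1 and COL9A2 to COL9A3.

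Over the 7 pairs of chains compared, an exact permutation test of the log2 ratios (2-sided) gave p = 0.1 for 5 pairs, which is the smallest value 3 against 3 libraries allow, and the Benjamini-Hochberg adjusted value was 0.14. The exact test gave p = 0.4 for COL6A2 to COL6A1 (adjusted 0.467) and p = 0.8 for COL9A2 to COL9A3 (adjusted 0.8). This test cannot go below 0.1 with 3 libraries a group, and the ratios are given as values.

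Transmembrane collagens split. COL13A1 (chr10:69801931-69964275), which sits at focal adhesions and cell junctions, had 2937, 4951 and 2653 reads in shCdGAP and 6749, 7140 and 5465 in shCon libraries. It fell from 28.7 ± 0.722 to 15.2 ± 3.92 RPKM (SD, n = 3 each), a change of -0.91 ± 0.174 log2 units (SE, edgeR adjusted p = 0.00520). With library 2 of shCdGAP left out the log2 fold change was -1.15. COL13A1 did not pass without shCdGAP library 3 (adjusted p = 0.0188), without any one of the shCon libraries (0.0130 to 0.0144) or without a filter on low counts (0.0424, all by edgeR). Its neighbours had a median of 0.41, and none of 40 was lower than it. COL17A1, the hemidesmosome collagen of basal epithelial cells, had 382, 495 and 311 reads against 180, 151 and 142 and rose by a change of 1.30 ± 0.122 log2 units (SE, edgeR adjusted p = 2.34e-05). COL25A1 had 45, 104 and 61 reads against 90, 80 and 72 with overlapping groups (log2 fold change -0.23, edgeR adjusted p = 0.454). COL23A1 had at most 2 reads.

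COL7A1, the chain of anchoring fibrils, had 197, 170 and 211 reads in shCdGAP and 103, 91 and 77 in shCon libraries. It rose by a change of 1.09 ± 0.174 log2 units (SE, edgeR adjusted p = 0.000602). COL18A1, the precursor of endostatin, had 5994, 5792 and 5209 reads against 5030, 5184 and 4233, and its change of 0.22 ± 0.0534 log2 units passed the test (SE, edgeR adjusted p = 0.00626). That call was lost without shCdGAP library 1 or 3 or any one of the shCon libraries (adjusted p 0.0185 to 0.0478 by edgeR). COL8A1, the short-chain collagen of vessels and cornea, had 1156, 1706 and 966 reads against 1642, 1661 and 1271 (log2 fold change -0.29, edgeR adjusted p = 0.0775). Without shCdGAP library 2 it fell, by 0.47 on the log2 scale (edgeR adjusted p = 1.96e-12).

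Library 2 of shCdGAP touched several of these genes. Without it 15 collagen genes rose and 9 fell of 29 tested, and 60.0% of all tested genes passed in place of 46.2%. The 16 genes not tested with all libraries had at most 15 reads in a library. Of these, 11 had more CPM on average in shCdGAP, 2 (COL2A1 and COL9A1) had more in shCon, and COL6A6, COL20A1 and COL22A1 had no read. COL28A1 had the most reads of them, 15, 10 and 9 against 4, 6 and 3, and COL8A2, COL10A1, COL14A1 and COL26A1 had at most 8.

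Chains need a set of enzymes and chaperones before they can leave the cell, and 61 of 73 such genes and other partners of collagen were tested. Of these, 31 rose and 10 fell, with a median log2 fold change of 0.31. For this count and those of the single lists that follow, the shares over all tested genes were 24.1% higher and 22.0% lower, so that the 10 that fell were no larger a share than among all genes. The 31 that rose include COLGALT2, LUM, BGN, OGN and FAP, which passed the filter only through shCdGAP and so had to differ. Of the 19 genes for modification and folding inside the cell, 11 rose (24.1% among all tested genes) and 5 fell (22.0%), the latter close to the share over all genes. P4HA1, P4HA2 and P4HA3, the catalytic subunits of prolyl 4-hydroxylase, all rose, P4HA3 from 1.83 ± 0.185 to 6.17 ± 0.959 CPM (SD, n = 3 each, log2 fold change 1.75, edgeR adjusted p = 1.55e-05) and P4HA2 by 1.09. Their common subunit P4HB did not pass (-0.0036, edgeR adjusted p = 0.953). The prolyl 3-hydroxylases P3H2 and P3H3 rose by 1.01 and 1.66, while CRTAP, a cofactor of prolyl 3-hydroxylation, fell by 0.89 on the log2 scale (edgeR adjusted p = 3.47e-07). COLGALT2, a collagen galactosyltransferase, rose from 8, 3 and 5 to 111, 100 and 96 reads, while its far more abundant relative COLGALT1 fell by 0.29 on the log2 scale. COLGALT2, counted among the 11 that rose, passed the filter only through shCdGAP.

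Export, propeptide removal and cross-linking follow in the path of a chain. Of 8 genes for export from the endoplasmic reticulum, 5 rose and none fell (24.1% and 22.0% among all tested genes), the highest being SEC24D, a COPII coat component, by 0.53. Of 5 tested genes for removal of propeptides, PCOLCE2 rose by 0.97 and BMP1 and ADAMTS3 fell. Of the 7 cross-linking genes, LOXL3 rose by 1.10 and LOXL2 and TGM2 also rose, while LOXL1, a lysyl oxidase known for elastic fibres, fell from 81.8 ± 1.33 to 37.8 ± 6.47 CPM (SD, n = 3 each, log2 fold change -1.11, edgeR adjusted p = 6.22e-05). LOX did not pass (-0.98, edgeR adjusted p = 0.0474), although its scaled level was lower in every shCdGAP library than in any shCon library. PXDN, the peroxidase that cross-links type IV collagen, did not pass (0.09, edgeR adjusted p = 0.145).

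**Figure D5:**
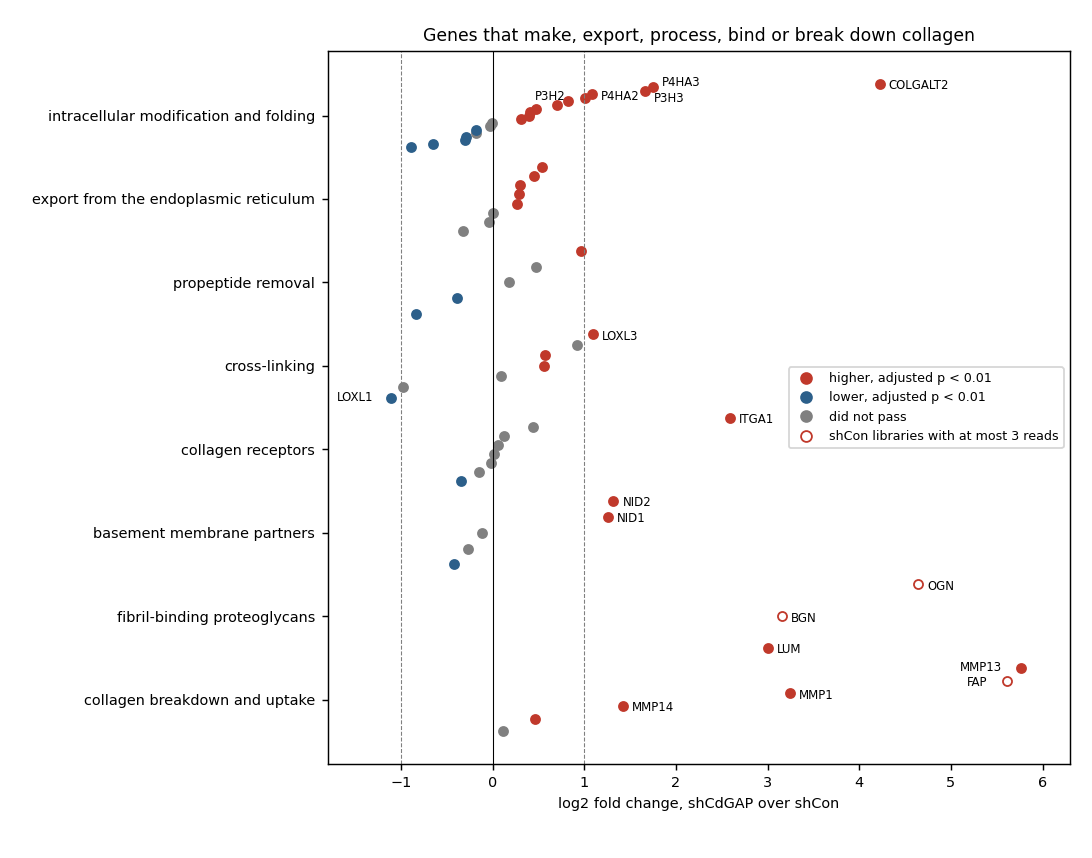
log2 fold change of the 61 tested partner genes of collagen by list, coloured by the edgeR test at an adjusted p of 0.01, with names for those beyond 1 and open points where every shCon library had at most 3 reads, so that the fitted fold is not reliable. Most red points beyond 3 belong to breakdown and fibril-binding genes.

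Genes that bind or break down collagen included the largest changes of these lists. Of the 8 tested receptor genes, ITGA1, a subunit of a collagen-binding integrin, rose from 175, 151 and 126 to 707, 1465 and 623 reads (log2 fold change 2.58, edgeR adjusted p = 0.000520), its partner ITGB1 fell by 0.35, and DDR1 and ITGA2 were among the 6 that did not pass. NID1 and NID2, which link the type IV network to laminin, rose by 1.26 and 1.32, and AGRN fell by 0.42. The proteoglycans LUM, BGN and OGN rose from at most 11 reads in a shCon library, LUM to 72, 91 and 52 reads. Each of them passed the filter only through the shCdGAP libraries and so had to differ. Of 6 tested genes for breakdown and uptake, 5 rose and none fell (24.1% and 22.0% among all tested genes), and 1 of the 5, FAP, had at most 1 read in a shCon library and so passed the filter only through shCdGAP. The collagenases MMP1 and MMP13 and the membrane-bound MMP14 rose by 3.24, 5.76 and 1.42 on the log2 scale. MMP13 had 6520, 4658 and 5596 reads in shCdGAP against 103, 131 and 76 in shCon libraries. FAP, a serine protease known from activated fibroblasts, had 22, 19 and 26 reads in shCdGAP and 0, 0 and 1 in shCon libraries.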

How the data were processed

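Read counts per gene were taken as the authors deposited them, one table of raw counts for each of the 6 libraries. According to the methods and labels, reads were aligned to GRCh38 with STAR 2.5.1b. The file headers name featureCounts 1.6.0 (the labels 1.4.6) with the Ensembl release 77 annotation, counting by strand of read pairs with both ends mapped, whereas the methods name a single-read sequencing kit. The headers were followed for the unit, so a read in the counts and in RPKM stands for a read pair. These settings drop reads that overlap several genes on the same strand. Symbols came from a table that matched 56105 of 64253 genes, and all 44 collagen genes were found by identifier.

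Low counts were removed by filterByExpr, libraries were scaled by TMM, and the remaining 16439 genes were tested by the robust quasi-likelihood F test of edgeR 4.0.16 (R 4.3.3) on unpaired groups, with Benjamini-Hochberg adjustment over all of them. The size of a log2 fold change over the square root of its F gave the standard error. RPKM are counts over TMM-scaled library size and gene length. Scripts were tested on simulated data. Alternatives were DESeq2 1.42.0, limma 3.58.1, other scalings and filters, a test against a fold, a replicate block and leaving out each library. An adjusted p threshold of 0.05 was a further alternative. The totals of 33182796 to 43154039 reads set the counting error. The members, classes and partner lists were chosen with earlier results of these data known. Named are all collagen genes, those partner genes past an adjusted p of 0.01 and a log2 fold change of 1, and ARHGAP31. Other partner and marker genes were named after their values were seen. Some marker genes are not reported here.

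Libraries with the same replicate number correlated only weakly in their deviations from the group means (0.0306 to 0.0499, under the 0.1 asked for pairing), so they were not paired.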

Additional observations from a re-analysis of the deposited data

How the results depend on the processing

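Across 16 alternative settings, none of the 20 collagen genes that passed changed direction, and 6 of them (COL1A1, COL3A1, COL4A1, COL6A1, COL6A2 and COL21A1) passed an adjusted p of 0.01 under each setting. The glmTreat test of edgeR, which asks for more than a 2-fold change, left 3 genes higher and 3 lower, by construction of that test. By that test 6.07% of all tested genes passed. The setting with an adjusted p threshold of 0.05 repeats the main fit, and glmTreat keeps its log2 fold changes, so neither could change a direction. With each library left out in turn, 8 to 15 genes rose and 7 to 9 fell, while 34.4% to 60.0% of all tested genes passed. Beyond a log2 fold change of 1, 6 to 9 were higher and 6 to 6 lower. With every library, 8.56% and 4.19% of all tested genes were past these thresholds. The 6 lower genes were not always the same. Without shCdGAP replicate 2, COL4A2 (-0.96) left them and COL13A1 (-1.15) joined. COL4A4 also did not pass by DESeq2 (adjusted p = 0.0156), or by edgeR without shCon replicate 1 or 2 (0.0116 and 0.0132), COL9A2 by limma (0.0104) or by edgeR with only genes of at least 10 reads in every library (0.0102), and COL4A6 by edgeR without a filter (0.0569). Of genes that did not pass, 3 turned sign when 1 library was left out. Their log2 fold changes ranged from -0.55 to 0.0091 for COL25A1 (positive without shCdGAP replicate 1), from -0.069 to 0.14 for COL4A5 (negative without shCdGAP replicate 2) and from -0.014 to 0.74 for COL11A2 (negative without shCdGAP replicate 3). The cause was not tested. Chain ratio differences kept their sign when a library was left out, except COL9A2 to COL9A3 (-0.13 to 0.35 on the log2 scale).

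A fit with the replicate number as a block gave 12 higher and 8 lower genes and changed no call. Every library correlated best with the other group's library of its own number, which is a hint from the data and not from the design. Means under 10 reads in shCon libraries limit the folds of COL4A4, COL11A2 and COL19A1.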
